A study of Mus musculus with 18 samples.

Results

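Prostates of 30-week-old mice that carry the Ala537Thr substitution in ELAC2 (A537T), threonine in place of alanine, were compared with those of WT mice of the same age. The rule of the comparison took 3 A537T libraries, named 7AF, 8AF and 9AF in the deposited columns, against 3 WT libraries, 1AF, 2AF and 3AF, and all genes whose normalized count averaged 10 or more across these 6 libraries. Of 55469 genes in the table, 14789 met this minimum, and the 6 libraries are part of 18 in the series. The gene just inside the limit, Gm10288, had a mean of 10.001 and the gene just outside, Gm9828, a mean of 9.9991. The A537T mice were homozygous for a point mutation made by CRISPR-Cas9 editing and present in the whole body, so the change was not limited to the prostate epithelium, and their WT littermates were Elac2+/+. All mice were males of the C56NL/6N strain without the TRAMP transgene, and each library came from a separate mouse. Total RNA was taken from the ventral and lateral lobes after the seminal vesicles and adipose tissue had been dissected away. Other groups of the series are set beside the comparison where this helps, namely A537T and WT mice of 10 weeks, and KO mice of 30 weeks in which a prostate-specific Cre had deleted Elac2.

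ELAC2 is the endonuclease that cuts the 3′ trailer from precursor tRNAs in the nucleus and in mitochondria, where tRNAs punctuate the long polycistronic transcripts of mitochondrial DNA. Interferons are secreted proteins that act through JAK kinases and the transcription factors that these activate, and the genes that they switch on sense foreign nucleic acid, block viral replication and present antigen to T cells. In the glandular prostate, luminal cells secrete large amounts of a few proteins, plasma cells and macrophages sit in the stroma, and the seminal vesicles lie next to the gland and secrete proteins of their own. The codon that was edited is shown as it stands in the reference, on the forward strand of GRCm38 at chr11:64997956-64997982 in exon 17 of 25 of Elac2, with the alanine codon, bases 64997968 to 64997970, in capitals. The edited base itself was not read here.
Elac2 alanine codon and its flanks: tgcagcctcacgGCTgtgtttgtgtcc

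Elac2 mRNA was counted in all 6 libraries, and its level does not check the genotype, because the mutation changes a codon and removes no exon. Its normalized count was 147, 150 and 191 in WT and 121, 189 and 114 in 7AF, 8AF and 9AF. Library 8AF lay among the WT libraries and the other two below them, and the log2 difference of -0.23 ± 0.23 (SE) did not pass the test (adjusted p = 0.658, limma).

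The libraries were not alike in tissue content, and each result that follows was read with this in view. The 11 seminal vesicle genes took 7.25% and 9.18% of normalized counts in 7AF and 9AF, but 0.000171% in 8AF (15 reads, 95% Wilson interval 0.000104 to 0.000283%, counting error only) and 0.000426 to 0.000820% in the WT libraries. The mean difference of 5.48 percentage points had an exact 2-sided permutation p of 0.4, and 0.1 is the smallest p that 3 libraries against 3 can reach. The 10 genes of prostate luminal secretion took 14.8%, 13.5% and 14.9% in WT, 15.01% in 8AF, and 7.41% and 4.49% in 7AF and 9AF. Among the WT libraries 1AF stood apart. Its normalized count of Tgm4, the transglutaminase that crosslinks prostate secretions, was 45.7 against 64610 and 44040 in 2AF and 3AF. For 9530053A07Rik, a lobe-restricted secretory gene, it was 56.1 against 491200 and 338800. The A537T libraries 7AF, 8AF and 9AF had 9946, 23780 and 4489 of 9530053A07Rik, each far below 2AF and 3AF and above 1AF. Adipocyte genes took 0.00241% in 1AF and 0.00213% in 8AF, 0.0130% and 0.0152% in the other WT libraries, and 0.0453% and 0.0559% in 7AF and 9AF. Libraries held 8121445 to 11039360 reads, as recovered from the normalized counts. In bulk tissue of this kind, fewer cells of a type and less RNA per cell cannot be told apart.

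**Figure D1:**
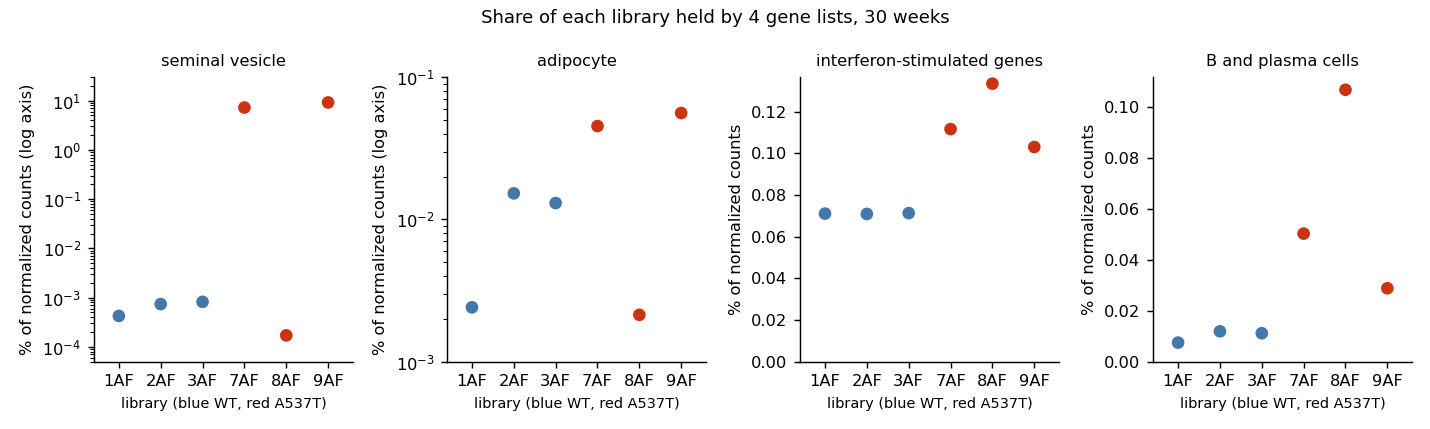
Share of normalized counts, in percent, that 4 lists of genes took in each of the 6 libraries at 30 weeks, with log axes for the seminal vesicle and adipocyte lists. Seminal vesicle genes separate 7AF and 9AF from the other libraries, while the shares of interferon-stimulated genes (0.103 to 0.133% against 0.0709 to 0.0713% in WT) and of B and plasma cell genes are above all WT libraries in all 3 A537T libraries.

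No gene passed the threshold of 0.05 on the adjusted p in the comparison of all 6 libraries by limma (0% of the genes tested). The smallest adjusted p was 0.137, for Irf9, and 2016 genes (13.6%) had an unadjusted p under 0.05, of which 1087 (7.35%) were higher and 929 (6.28%) lower in A537T. Tested as recovered reads, edgeR also called 0 genes and had 2167 (14.7%) under the same unadjusted limit, whereas DESeq2 called 472 (3.19%), 323 of them higher (2.18%) and 149 lower (1.01%). Without 8AF, limma called 1207 genes (8.16%), 730 higher (4.94%) and 477 lower (3.23%). The verbs rose and fell are used below only for genes that passed in that fit without 8AF, and it is named each time. The A537T libraries did not overlap with WT for 1358 genes that were higher (9.18%) and 1390 that were lower (9.40%).

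The genes were then separated by what 8AF showed. A gene was counted as shared when 7AF, 8AF and 9AF each lay outside the WT range on the same side and by at least 1 on the log2 scale, a 2-fold difference, from the WT mean. It was counted as absent in 8AF when 7AF and 9AF did so and 8AF did not leave the WT range on that side, and as smaller in 8AF when 8AF left the range by less than 2-fold. By this rule 167 genes (1.13%) were higher and 50 (0.338%) lower in all 3 libraries. In 7AF and 9AF, and absent in 8AF, 585 (3.96%) were higher and 80 (0.541%) lower. Genes near 0 elsewhere could pass the minimum count through 7AF and 9AF, and 265 of the 585 had 10 or less in 8AF. The count of 585 is therefore not like for like with those of the lower and shared genes. A further 151 (1.02%) and 55 (0.372%) were smaller in 8AF. For comparison, 13 higher (0.0879%) and 16 lower (0.108%) genes were absent in 7AF alone, and 19 (0.128%) and 16 (0.108%) in 9AF alone, so that 8AF was the library from which most changes were missing. A library lay above the WT range for 30.9%, 24.9% and 33.4% of all genes in 7AF, 8AF and 9AF, and below it for 30.9%, 25.3% and 34.0%.

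**Figure D2:**
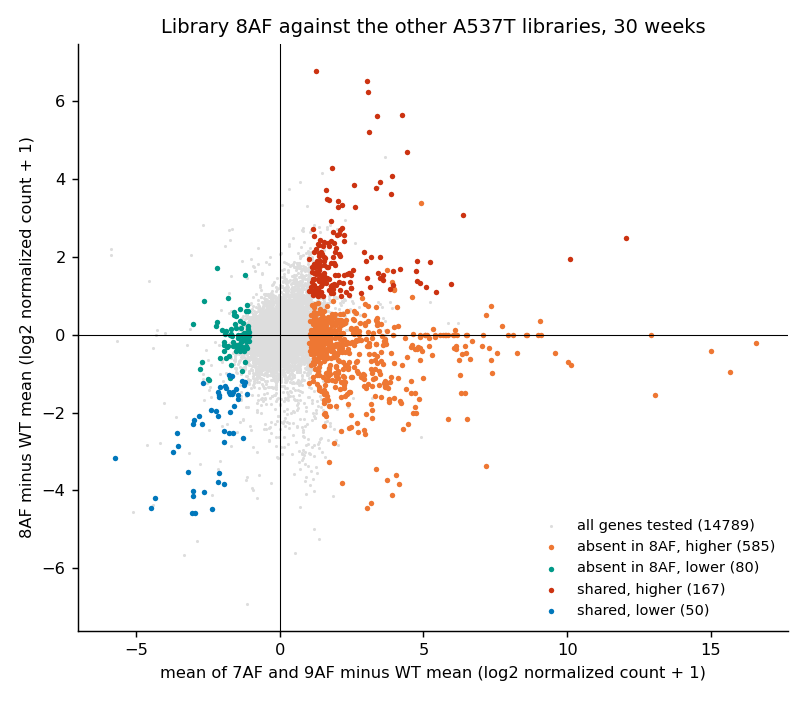
Each of the 14789 genes by the mean of 7AF and 9AF minus the WT mean (x axis) and by 8AF minus the WT mean (y axis), both on log2(normalized count + 1). The shared genes (167 red, 50 blue) lie at least 1 from 0 on both axes, and those furthest to the right lie well below the diagonal. The genes absent in 8AF (585 orange, 80 teal) lie mostly to the right, and 8AF did not leave the WT range on their side. Of the 585, 72 lie at least 1 below 0 on the y axis.

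Interferon-stimulated genes were higher in all 3 A537T libraries, and more so in 8AF than in the other two. Of 62 genes listed, 56 were tested and 53 were higher, where 49.3% of all genes were higher. Their median log2 difference was 0.78, against -0.01 over all genes, and was 0.77, 1.08 and 0.71 in 7AF, 8AF and 9AF taken singly. The groups did not overlap for 32 members that were higher and 1 that was lower (9.18% and 9.40% of all genes). Library 8AF was the highest of the 6 libraries for 39. Without 8AF, 15 members rose (4.94% of all genes), and DESeq2 on all 6 libraries called 18 as higher (2.18% of all genes). The members that did not pass the minimum count are Cgas, Ifit1bl1, Ifit1bl2, Oas3, Ifi44l and Phf11b.

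The limits of the shared class were met by 10 members, where 1.13% of all genes were shared and higher. They are Ifi204, Ifi213, Ifi44, Ifit3, Irf9, Oasl1, Oasl2, Rtp4, Trim30a and Zbp1. Ifi213 and Zbp1, with means of 12.1 and 12.7, were near the minimum count and may have passed it through the A537T libraries. Irf9, the DNA-binding subunit of the factor that type I interferon activates, had normalized counts of 173, 165 and 190 in WT and 404, 428 and 402 in A537T. The A537T libraries were all above WT and close to each other, and the log2 difference was 1.22 (adjusted p = 0.137 from limma, 0.00400 without 8AF, and 2.56e-11 with DESeq2). Ifi44, an antiviral protein of the cytosol, had 7.22, 14.9 and 12.9 in WT and 53.2, 78.1 and 48.2 in A537T, a log2 difference of 2.29 ± 0.36 (SE, adjusted p = 0.153). Rtp4, a receptor chaperone that also restrains flaviviruses, had 24.1, 13.8 and 20.8 in WT and 63.3, 103 and 52.6 in A537T, and Ifit3, of the interferon-induced tetratricopeptide family, had 25.7, 41.3 and 44.5 against 88.4, 95.4 and 105. The shared class itself requires the A537T libraries to lie above WT for each of these genes. Library 8AF was the highest for Irf9, Ifi44 and Rtp4. Oasl2, a relative of the oligoadenylate synthetases, had 35.3, 102 and 37.6 in WT and 148, 282 and 127 in A537T, and Trim30a, a ubiquitin ligase of innate signalling, had 46.5, 43.6 and 64.3 against 144, 112 and 104.

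Other members differed by less or varied between the A537T libraries. Parp14, a mono-ADP-ribosyltransferase and one of the most abundant members, had 391, 364 and 364 in WT and 593, 797 and 615 in A537T, with no overlap and a log2 difference of 0.83 (adjusted p = 0.154). Irf7, which amplifies the type I response, had 45.7, 55.1 and 56.4 in WT and 142, 233 and 87.6 in A537T. Znfx1, a helicase that senses RNA at mitochondria, rose without 8AF, where its level of 516 lay within the WT range of 398 to 529, against 885 and 891 in 7AF and 9AF. Trim25, the ubiquitin ligase of the RIG-I pathway, overlapped between groups with a log2 difference of 0.11. Isg20, an exonuclease, was the member with the lowest value, at -0.50, and Mx1, a dynamin-like GTPase that acts against influenza, and Ifit2 had -0.06 and -0.13.

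The ligands, receptors and signal carriers of interferon did not show this pattern. Of 23 genes listed, 16 were tested, with a median of 0.01 and 9 higher. There was no overlap for 2 that were higher and 1 that was lower (9.18% and 9.40% of all genes). Ifnb1, Ifng, Ifnk, Ifnl2 and Ifnl3, which encode interferons of all 3 types, had 0 reads in all 6 libraries, which allows up to 3 reads in each, and Ifne had 1 read in 8AF and 0 elsewhere. Jak1, the kinase common to their receptors, had a log2 difference of 0.03, Ifnar1, a chain of the type I receptor, 0.75, and Socs3, a feedback inhibitor, 1.07.

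Promoters of the interferon genes are shown because the members were higher together in all 3 A537T libraries. The letters GAAANNGAAA, the core of the sequence that interferon regulatory factors recognise, were searched on both strands of RefSeq promoters (GRCm38.p6, 250 bases before to 50 after the start). They occur in 404 of the 10537 tested genes that have a promoter in the table (3.83%), in 19 of 42 interferon-stimulated genes (45.2%), in 9 of 10 interferon-gamma induced GTPase genes (90.0%), in 13 of 91 shared genes that were higher (14.3%) and in 21 of 416 genes that were higher and absent in 8AF (5.05%). A match is a description and no proof of a site. Each printed match is in capitals, with 10 bases on each side. Those printed are only from shared genes of the interferon-stimulated and GTPase lists. They lie at chr1:173599326-173599355 (reverse strand), chr19:34583397-34583426 (forward), chr7:104465210-104465239 (reverse), chr3:142559995-142560024 (forward) and chr11:49064263-49064292 (reverse), in the order of the lines.
Ifi213: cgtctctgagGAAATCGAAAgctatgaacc
Ifit3: tttaagtctgTTTCAGTTTCtactttcctc
Trim30a: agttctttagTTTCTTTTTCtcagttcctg
Gbp3: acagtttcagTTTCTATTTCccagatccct
Tgtp2: tccaggaatcGAAACCGAAAcctactctga

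The GTPases that interferon-gamma induces, which attack the vacuoles of intracellular parasites, were higher throughout. All 14 of the 18 listed genes that were tested were higher, 10 of them without overlap (9.18% of all genes). Their median log2 difference was 0.85, with medians of 1.01, 0.84 and 0.98 in 7AF, 8AF and 9AF. Gbp3, Gbp6, Ifi47, Iigp1 and Tgtp2 were in the shared class, as were 1.13% of all genes on the higher side. Gbp6, a guanylate-binding protein, had 36.9, 35.6 and 35.6 in WT and 75.3, 99.3 and 87.6 in A537T, a log2 difference of 1.25 (adjusted p = 0.153). Ifi47 had 8.82, 8.03 and 6.93 in WT and 26.1, 30.9 and 39.4 in A537T, and Irgm1, a regulator of the family and its most abundant member here, had 105, 78.0 and 97.0 against 137, 190 and 171. The groups were apart for all 3 genes, which the shared class requires for Gbp6 and Ifi47, and by the least for Irgm1. Tgtp1, nearly identical in sequence to Tgtp2, was counted as absent in 8AF, and how reads were divided between these copies is uncertain.

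Antigen presentation by MHC class I was higher in part. Of 18 genes tested 16 were higher, with a median of 0.46. The groups did not overlap for 9 that were higher and 1 that was lower (9.18% and 9.40% of all genes). Nlrc5, the transactivator of class I genes, had 29, 60 and 47 in WT and 173, 192 and 160 in A537T, a log2 difference of 1.99 (adjusted p = 0.153), and it rose without 8AF (adjusted p = 0.0181, limma). The classical heavy chain H2-D1 had 2051, 1863 and 1892 in WT and 2719, 2518 and 2784 in A537T, and H2-K1 differed by 0.24 with overlap. The nonclassical H2-Q7 had 49.7, 45.9 and 44.5 in WT and 122, 101 and 134 in A537T, although H2-Q6 and H2-Q7 are close copies whose counts are uncertain. B2m, the light chain common to class I molecules, was absent in 8AF. Its normalized count was 4209, 6161 and 5518 in WT, 10510 and 13130 in 7AF and 9AF, and 4045 in 8AF, the lowest of the 6 libraries, so that it separated from its heavy chains in 8AF.

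MHC class II genes, which antigen-presenting cells use to show peptides to CD4+ T cells, were higher in all 7 members tested of 10 listed, and 8AF was the highest library for each of the 7. Their median log2 difference was 1.26, with 1.01, 1.75 and 0.82 in 7AF, 8AF and 9AF. Of the 7, 5 did not overlap, where 9.18% of all genes were higher without overlap. H2-Eb1 had 154, 161 and 129 in WT and 343, 550 and 392 in A537T, a log2 difference of 1.51 (adjusted p = 0.153), and rose without 8AF (adjusted p = 0.00578, limma). Cd74, the invariant chain, had 456, 360 and 388 in WT and 875, 1408 and 716 in A537T, and Ciita, the class II transactivator, had 15.2, 21.8 and 38.6 against 48.2, 93.5 and 48.2. The A537T libraries were above the WT libraries for these 3 genes, with Ciita in 7AF and 9AF nearest to the highest WT library. H2-Eb1 and Ciita are in the shared class, which requires this separation.

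**Figure D3:**
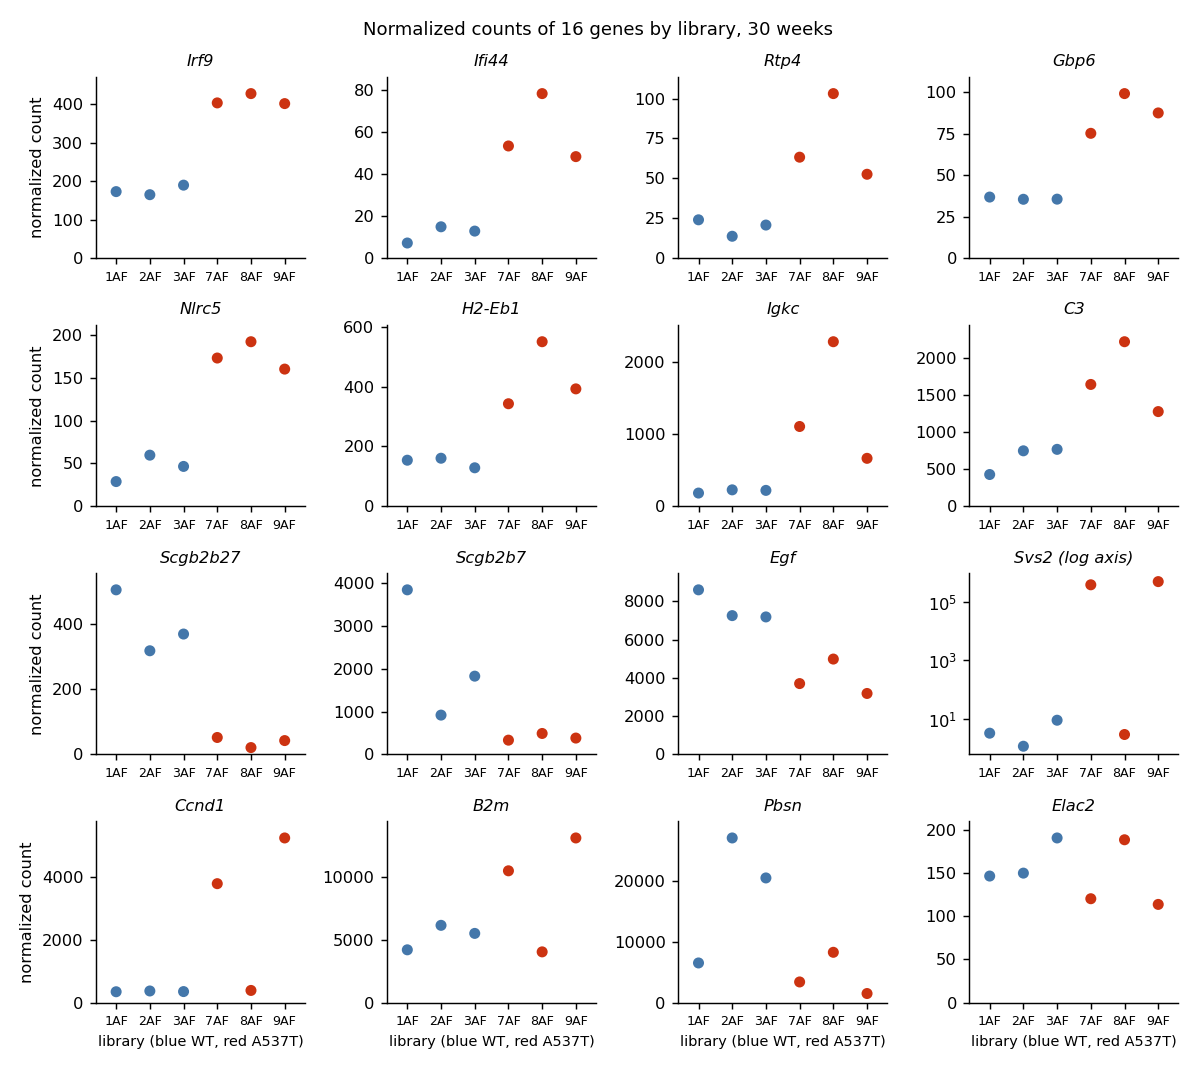
Normalized counts of 16 genes in each of the 6 libraries, with WT and A537T libraries side by side and a log axis for Svs2. Irf9, Ifi44, Rtp4, Gbp6, Nlrc5, H2-Eb1, Igkc and C3 are higher and the secretoglobins lower in all 3 A537T libraries, whereas B2m, Ccnd1 and Svs2 are high only in 7AF and 9AF among these libraries.

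Immunoglobulin transcripts showed the largest differences among the immune lists. All 7 members of the B and plasma cell list that were tested, of 14 listed, were higher without overlap, where 9.18% of all genes were. Their median log2 difference was 2.44, with medians of 2.23, 3.29 and 1.66 in 7AF, 8AF and 9AF. Igkc, the kappa constant region, had 184, 228 and 221 in WT and 1104, 2276 and 664 in A537T, a log2 difference of 2.49 ± 0.40 (SE, adjusted p = 0.153), and it rose without 8AF (adjusted p = 0.00487, limma). Ighm, the mu heavy chain, had 347, 701 and 599 in WT and 2469, 5804 and 1205 in A537T. Jchain, which joins IgM and IgA units, had 53.7, 102 and 85.1 in WT and 331, 602 and 218 in A537T. For all 3 genes 8AF was the highest library and 9AF the lowest of the A537T libraries.

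The gamma heavy chain Ighg2c was the 1 gene of the 7 for which 8AF was not the highest library. It had 23, 7 and 10 in WT, 304 and 400 in 7AF and 9AF and 46 in 8AF, a log2 difference of 3.81. Of 218 variable segments in the table, 18 were tested. Of these, 17 were higher, with a median of 2.61. There was no overlap for 14 (9.18% of all genes), and 13 were in the shared class (1.13% of all genes). Their mean log2 level was 1.52 to 2.35 in the WT libraries and 4.03 to 5.30 in the A537T libraries. They thus passed the minimum count mainly through the A537T libraries, so these counts are no measure of how often segments were higher. Reads of such similar segments may be assigned among copies. The B cell surface genes Cd79a, Cd79b and Ms4a1 stayed below the minimum count, as did Mzb1, a chaperone of plasma cells, with 2.41, 0 and 3.96 in WT and 13.1, 22.2 and 12.1 in A537T. Together the genes of the list took 0.00749%, 0.0119% and 0.0112% of normalized counts in WT and 0.0503%, 0.107% and 0.0288% in A537T.

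Macrophage and complement genes were also higher, with the highest level in 8AF for most. All 13 macrophage genes were higher, 8 without overlap, with a median of 0.84. Over all genes 9.18% were higher without overlap. Of the 13, 1 rose without 8AF, as did 4.94% of all genes. Lyz2, lysozyme of myeloid cells, had 163, 348 and 282 in WT and 611, 980 and 489 in A537T, a log2 difference of 1.39. Of 15 complement genes tested 13 were higher, 9 without overlap, and 8AF was the highest library for 12. C3, the central component of the cascade, had 431, 751 and 771 in WT and 1649, 2227 and 1282 in A537T, a log2 difference of 1.41 (adjusted p = 0.210), and rose without 8AF. Ccl8, a monocyte chemokine, was the only one of 14 chemokines tested in the shared class (1.13% of all genes were shared and higher). T and NK cell genes were too low to describe, with 3 of 15 tested, and of 8 neutrophil genes only Csf3r was tested. How far the numbers of immune cells in each prostate account for the interferon and MHC values was not tested.

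**Figure D4:**
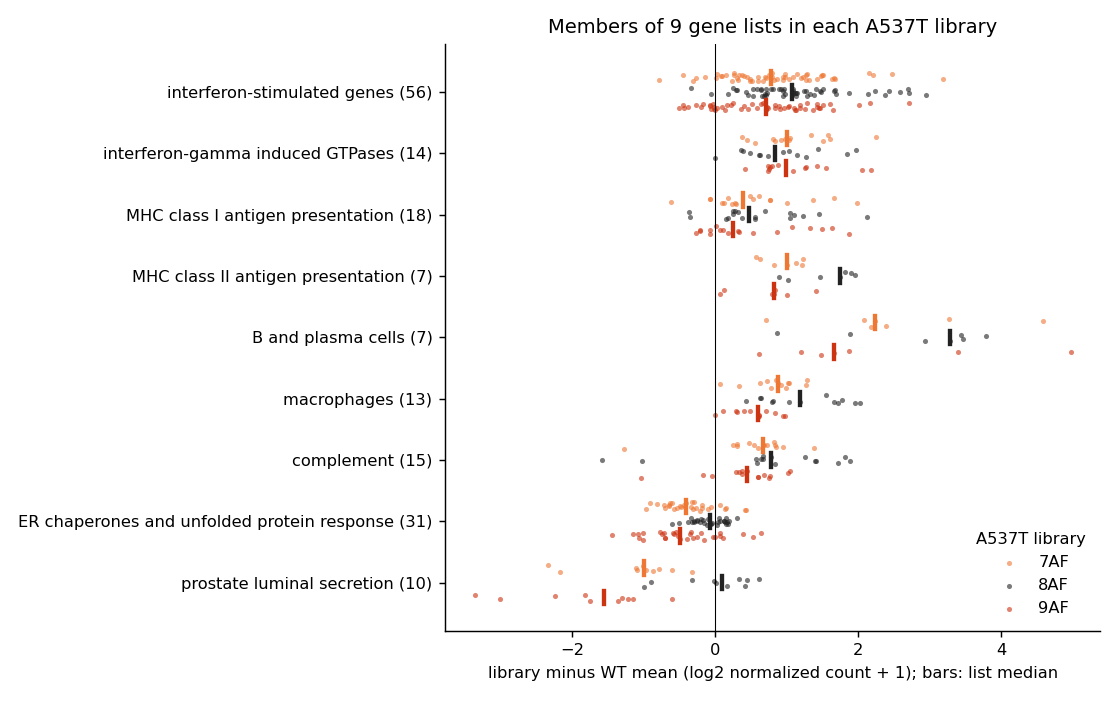
Difference from the WT mean of every tested member of 9 lists in 7AF, 8AF and 9AF, on log2(normalized count + 1), with a bar at the median of each library. Medians of the immune lists are above 0 in all 3 libraries, while the luminal secretion and ER chaperone lists differ between 8AF and the other two.

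Secretoglobins had the lowest median of the lists described here. These small secreted proteins include the subunits of mouse androgen-binding protein, which is found in saliva and reproductive secretions. All 12 secretoglobin genes that were tested, of 69 in the table, were in the shared class and lower, as were 0.338% of all genes. Their median log2 difference was -2.39, with medians of -2.28, -2.72 and -2.07 in 7AF, 8AF and 9AF. All 12 lie on chromosome 7 of GRCm38, between 31401034 and 34022881. Scgb2b27 had 506, 319 and 370 in WT and 52.2, 21.2 and 42.7 in A537T, a log2 difference of -3.40 ± 0.34 (SE, adjusted p = 0.149), and it fell without 8AF (adjusted p = 0.00112, limma). Scgb2b20 had 6602, 1468 and 2974 in WT and 509, 137 and 690 in A537T, and Scgb2b7 had 3847, 920 and 1830 against 335, 491 and 383. The shared class itself requires the A537T libraries to lie below WT for each. Library 1AF was the highest WT library for all 3. Without 8AF 4 of the 12 fell (3.23% of all genes), and DESeq2 called 10 of them as lower on all 6 libraries (1.01% of all genes). The family is made of close copies, so the level of each copy is uncertain. At 10 weeks only 2 of the 12 passed the minimum count. Scgb2b20 then had 0, 1.73 and 1.07 in WT and 1.06, 0.951 and 0 in A537T. Scgb2b7 had 0, 2.59 and 4.26 in WT and 4.26, 5.71 and 1.01 in A537T. The WT level of these genes at 30 weeks was thus not present at 10 weeks.

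Other genes that were lower in all 3 libraries were a mixed set. Adam7, a membrane protein best known from the epididymis, had 750, 523 and 585 in WT and 172, 106 and 190 in A537T, a log2 difference of -2.01 (adjusted p = 0.153). Of the 18 epididymis genes listed, 3 passed the minimum count. Fcgbp, a mucin-like protein, and Pgm2l1, which makes glucose 1,6-bisphosphate, depended on the WT library: Fcgbp had 341 and 296 in 2AF and 3AF but 32.1 in 1AF, next to 27.1, 31.8 and 12.1 in A537T. Pgm2l1 had 1787 and 1373 in 2AF and 3AF, 249 in 1AF, and 183, 218 and 185 in A537T. Without 1AF the count of shared genes that were lower was 137 in place of 50. Of 14 skeletal muscle genes tested 11 were lower, with a median of -1.33 (-0.84 without 1AF and -2.21 without 2AF). Atp2a1, Myl1 and Tnnt3 were in the shared class (0.338% of all genes were shared and lower).

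The 8 protein-coding genes with the largest positive differences in the shared class, other than Plac9b, were far higher in 7AF and 9AF than in 8AF. Akr1b7, an aldose reductase of reproductive tissues, had 1.60, 0 and 0 in WT, 5049 and 6653 in 7AF and 9AF, and 6.75 in 8AF, which is 7 reads. Serpina1f, an epididymal serpin, had 0 in all WT libraries, 919 and 1328 in 7AF and 9AF, and 2.89 in 8AF, which is 3 reads, so its mean was at least 255-fold higher than a floor of 3 reads per WT library. Prdm16, a transcriptional regulator, had 15.2, 16.1 and 13.9 in WT and 439, 40.5 and 428 in A537T, and Unc79, a subunit of a sodium leak channel, had 20.9, 8.03 and 10.9 against 368, 29.9 and 562. In 8AF these genes were far below 7AF and 9AF, and Akr1b7 and Serpina1f rest there on the few reads given. Alox5ap, needed for leukotriene synthesis, had 7.22, 12.6 and 19.8 in WT and 132, 35.7 and 169 in A537T, and Ikzf1, a lymphoid transcription factor, had 11.2, 25.2 and 8.91 against 169, 43.4 and 146. Of the 167 genes, 11 had a normalized count of 10 or less in 8AF, 122 were protein coding and 21 were immunoglobulin segments.

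Genes that were higher in 7AF and 9AF but absent in 8AF were led by those of the seminal vesicle. All 11 listed seminal vesicle genes were in this class, as were 3.96% of all genes. Svs1, Svs2, Svs3b, Svs4, Svs5, Svs6 and Pate4 were below 10 in WT and 8AF. They passed the minimum count through 7AF and 9AF alone, so their class was nearly fixed once they were tested. Svs2, the major clotting protein of seminal vesicle fluid, had 3.21, 1.15 and 8.91 in WT, 383900 and 493700 in 7AF and 9AF, and 2.89 in 8AF. Crisp1, a sperm-coating protein of the epididymis, had 6558 and 8912 in 7AF and 9AF and 0 in the other 4 libraries. The 8 adipocyte genes were all in the class as well, and Car3, a carbonic anhydrase of fat and muscle, had 4.01, 470 and 350 in WT and 1345, 6.75 and 1760 in A537T. Here the WT libraries differed, with 1AF near 8AF and the other two between.

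Among the 585 genes were also genes that are not markers of another tissue by the lists used. B2m is described above. Cth, Psat1 and Shmt2, enzymes of sulfur amino acid, serine and one-carbon metabolism, Cxcl12, a stromal chemokine, Col15a1 and Lum, of the matrix, and Birc5, of the mitotic spindle, were in the class. Of the 585, 265 had a normalized count of 10 or less in 8AF and 533 were protein coding. Ccnd1, the G1 cyclin, belonged to the genes that were smaller in 8AF, with 345, 369 and 350 in WT, 3783 and 5237 in 7AF and 9AF, and 387 in 8AF, a log2 difference of 2.47 over all 6 libraries (adjusted p = 0.318, limma). Fgfr2, a receptor for stromal fibroblast growth factors, had 218, 281 and 198 in WT and 727, 282 and 997 in A537T, and Angpt1, the ligand of the endothelial receptor TEK, had 20.9, 22.9 and 18.8 against 102, 31.8 and 133. In these genes 8AF was the highest of the 4 libraries other than 7AF and 9AF, by a small margin.

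The KO libraries of the same age also differed in seminal vesicle genes, which took 8.54% and 6.33% of normalized counts in 4AF and 6AF and 0.000142% in 5AF. Reading the KO libraries against each other uses no WT library. Of the 585 genes that were higher and absent in 8AF, 517 (88.4%) were higher in both 4AF and 6AF than in 5AF, and so were 130 of the 151 (86.1%) that were smaller in 8AF. The same held for 92 of the 167 shared genes (55.1%) and for 5709 of all 14789 genes (38.6%). The adipocyte list took 0.00824%, 0.0539% and 0.0192% in 4AF, 5AF and 6AF, so it was highest in the KO library without seminal vesicle transcripts and lowest in the A537T library without them. The part of seminal vesicle tissue in the values of these genes was not tested.

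Secretory genes of the prostate had medians below WT in 7AF and 9AF and not in 8AF, where 6 of the 10 were above the WT mean. That mean includes 1AF, which was low for Tgm4, 9530053A07Rik and Pbsn. All 10 genes of luminal secretion were lower on the mean, with a median of -0.79, none was free of overlap, and the medians were -0.99, 0.09 and -1.56 in 7AF, 8AF and 9AF. Without 8AF 5 of them fell, as did 3.23% of all genes. Lower members without overlap numbered 4 without 1AF and 7 without 8AF. Pbsn, probasin, an androgen-regulated lipocalin, had 6502, 27010 and 20450 in WT and 3386, 8250 and 1487 in A537T. Library 8AF lay within the WT range only because of 1AF, and the log2 difference was -2.14 (adjusted p = 0.305). Sbp, the spermine-binding protein and the most abundant of the list, had 960500, 527600 and 697600 in WT and 466900, 962900 and 274700 in A537T. Nupr1, a stress-responsive chromatin protein, was likewise lower and absent in 8AF, with 7870, 3404 and 4909 in WT and 2108, 3920 and 1547 in A537T.

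Tcaf2, Man1a and Rnase1, of the genes that were lower and absent in 8AF, had a low level in 1AF too. Tcaf2, which regulates an ion channel, had 509, 3905 and 3009 in WT and 371, 814 and 294 in A537T, and Man1a, a mannosidase of the Golgi, had 2810, 7883 and 6381 against 1735, 3458 and 1203. Rnase1, a secreted ribonuclease, had 326, 1274 and 946 in WT and 194, 450 and 64.6 in A537T. As for Pbsn, the level of 8AF in these 3 genes lay between 1AF and the other WT libraries. Csta1, a cysteine protease inhibitor, had its highest WT level in 1AF, with 354, 139 and 204 in WT and 99.4, 175 and 38.3 in A537T. Without 1AF, 42 genes in place of 80 were lower and absent in 8AF.

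Egf, the epidermal growth factor precursor, was lower in all 3 libraries but by less than 2-fold in 8AF. It had 8609, 7261 and 7192 in WT and 3707, 4989 and 3190 in A537T, a log2 difference of -0.98 (adjusted p = 0.182). Among 31 chaperones and unfolded protein response genes of the endoplasmic reticulum, 26 were lower, with a median of -0.28. The groups did not overlap for 13 that were lower and 1 that was higher (9.40% and 9.18% of all genes). The chaperone medians of -0.41, -0.08 and -0.49 in 7AF, 8AF and 9AF followed the order of the luminal secretion genes. Without 8AF 11 of the 31 fell, as did 3.23% of all genes. With the level of seminal vesicle genes as a covariate, the chaperone median was -0.07 and that of the luminal secretion genes was 0.08. That level is high only in 7AF and 9AF, so this fit mostly compares 8AF with WT. In 8AF alone the medians were -0.08 and 0.09. The fit therefore cannot show the part of seminal vesicle tissue in these values. Pdia6, a disulfide isomerase, had 6307, 6785 and 6789 in WT and 3771, 5369 and 3271 in A537T, a log2 difference of -0.71. Smooth muscle genes had medians of 0.52, -0.45 and 0.76, with 8AF the lowest of the 6 libraries for 9 of 11 and no member free of overlap.

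Library 8AF did not enter the fit without it, so its value can be read for the genes that this fit called. Of the 730 genes that rose, 8AF was above the WT mean for 399 (54.7%, against 49.4% of all genes), and its median difference was 0.05 where the median of the fit was 1.61. Of the 477 that fell, 8AF was below the WT mean for 366 (76.7%, against 50.5%), and its median was -0.17 where the fit gave -0.80. It lay outside the WT range on the same side for 273 (37.4%, against 24.9%) and 283 (59.3%, against 25.3%). The WT libraries enter both values, and the shares of the genes that rose and fell were not tested against each other. Changes found in 8AF alone comprised 85 genes that were higher (0.575%) and 239 that were lower (1.62%), and 72 of the latter were also counted as higher and absent in 8AF. With 8AF as the only A537T library, where the spread comes from the WT libraries alone and 8AF is assumed to vary like them, limma called 0 genes and had 461 that were higher and 322 lower at an unadjusted p under 0.05.

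Mitochondrial and RNA-processing genes, the pathways in which ELAC2 itself acts, had medians near 0. Beside the counts that follow, 9.18% of all genes were higher and 9.40% lower without overlap. The 13 mitochondrial mRNAs and rRNAs had a median log2 difference of -0.09, with 10 lower and 3 without overlap, and 8AF was the lowest library for 10. The 23 genes of tRNA end processing and splicing had a median of 0.07 and 1 member without overlap in each direction, and the 75 nuclear-encoded subunits of oxidative phosphorylation a median of -0.06, 24 of them higher. Integrated stress response genes had a median of 0.10 over 24, with no overlap for 2 that were lower and 0 that were higher, and the median was -0.08 without 1AF. The 18 cell cycle genes had a median of 0.31, of which 16 were higher and 5 did not overlap, and the 22 collagens and matrix genes a median of 0.29, with 15 higher and 4 without overlap. Without 1AF the median of the collagens was 0.08, and 10 and 11 of them were higher without overlap when 2AF or 8AF was left out.

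At 10 weeks, in libraries that the 30-week comparison did not use, the immune lists had medians nearer to 0. That comparison called 0 of 15131 genes by limma (418 higher, 2.76%, and 555 lower, 3.67%, with an unadjusted p under 0.05), 51.5% of genes were higher, and 5.58% and 6.34% were higher and lower without overlap. Interferon-stimulated genes had a median of 0.15, with 34 of 51 higher and 7 without overlap, and the GTPases a median of -0.15, with 4 of 14 higher. MHC class II genes had 0.13, macrophage genes 0.01, and the 4 tested B and plasma cell genes 0.74, all of them higher. Igkc differed by 1.12 and Ifi44 by 1.11, while Irf9 differed by -0.09. The ER chaperones pointed the other way, with 28 of 31 higher, 15 without overlap and a median of 0.44. Of the 127 shared genes that were higher at 30 weeks and tested at 10 weeks, 67 (52.8%) were higher and 5 (3.94%) did not overlap, and of 522 absent in 8AF, 237 (45.4%) and 19 (3.64%). The shares over all genes were 51.5% and 5.58%. The tables of both ages were normalized separately, seminal vesicle genes took up to 4.46% in WT at 10 weeks against 0.0399 to 0.201% in A537T, and the difference between ages was not tested.

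**Figure D5:**
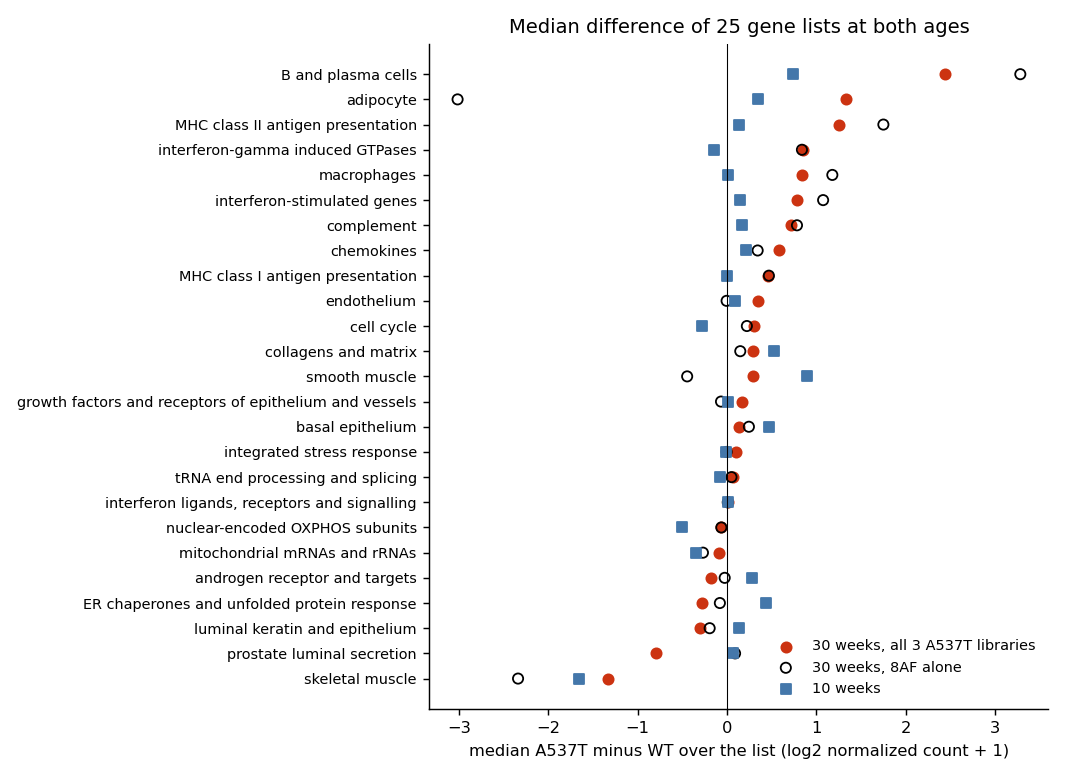
Median log2 difference of 25 lists in A537T against WT at 30 weeks (all 3 A537T libraries), in 8AF alone at 30 weeks, and at 10 weeks. The interferon, MHC class II and B and plasma cell lists are further from 0 at 30 weeks, in 8AF too, than at 10 weeks, and the ER chaperones are below 0 at 30 weeks and above 0 at 10 weeks.

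In KO mice of 30 weeks, compared with the same 3 WT libraries, interferon-stimulated genes had a median of 0.13, where A537T had 0.78. The GTPases had 0.49 against 0.85, MHC class II genes 0.81 against 1.26, and B and plasma cell genes 0.07 against 2.44. Secretoglobins had -1.40 in KO and -2.39 in A537T. Because the WT libraries are common to both, these values are set side by side only, and the difference between the lines was not tested.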

How the data were processed

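Per the labels and the study's methods, reads were trimmed with Trim Galore 0.4.1 and cutadapt 1.18, aligned to GRCm38 with STAR 2.7.3a and quantified with Salmon. The deposited signal values are normalized counts: within each table of 6 libraries the authors scaled the gene counts by size factors from DESeq2. The authors' log2 fold changes and s-values were not used. Columns were tied to groups through the table names and the WT columns common to both tables of an age, and not to replicates. Genes averaging 10 or more were put on the scale log2(normalized count + 1) and fitted by limma 3.58.1 (trend, Benjamini-Hochberg, R 4.3.3), so differences of low genes are understated. Values divided by the value of 1 read were whole within 0.1 in 100% of cases (8121445 to 11039360 reads per library), which for 3AF and 7AF, with size factors of 1.01 and 0.996, is no test of the recovery. These reads were tested with edgeR 4.0.16 and DESeq2 1.42.0. The code was tested on simulated data. Members, lists and classes were chosen with earlier results of these data known. The genes named with values by rule are Elac2, the 3 most abundant of the main lists, the most abundant of the others, and the 8 highest and lowest protein-coding genes of each class with a mean of at least 50, of which those with a described role are given; the remaining genes were chosen after their values were seen. Some genes are not reported here. Gene positions come from GENCODE M21.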

Additional observations from a re-analysis of the deposited data

Results flagged for a closer look

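Serpina1f, an epididymal serpin, had fitted differences of opposite sign at the 2 ages. At 30 weeks its normalized count was 0 in all WT libraries and 919, 2.89 and 1328 in A537T, and at 10 weeks it was 501, 18.2 and 1.07 in WT and 0, 0 and 1.01 in A537T. By normalized count the A537T libraries were above WT at 30 weeks and below WT at 10 weeks, but 8AF rests on 3 reads, which is the floor allowed for a library at 0, and the nearest libraries at 10 weeks, 1.07 and 1.01, differ by their scaling only. The fitted log2 differences of 7.39 and -4.42 depend on the pseudocount, and the difference between ages was not tested. Seminal vesicle genes took 4.46%, 1.71% and 0.000798% of normalized counts in the same WT libraries at 10 weeks and 0.201%, 0.142% and 0.0399% in A537T, and their part in the result was not tested.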

How the results depend on the processing

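The called genes, 0 by limma, became 5147 with array weights (2596 higher; weights of 0.267 for 8AF to 6.50 for 7AF, without convergence), 3 with the seminal vesicle score as covariate, 472 with DESeq2 and 1235 with edgeR without 8AF. Leaving out each library in turn gave 0 to 1207, the latter without 8AF and 6 without 1AF. Of the genes with an unadjusted p under 0.05, 53.9% were higher. This share was 67.5% with libraries scaled to the same total, 79.5% with scaling outside the seminal vesicle genes, which moved the median of all genes to 0.10, and 40.5% at a minimum mean of 100. Genes higher without overlap numbered 602 at a minimum mean of 100 and 2269 with scaling outside the seminal vesicle genes, and 1862 to 2134 without single WT libraries. Genes lower without overlap numbered 864 with the same total, 634 with scaling outside the seminal vesicle genes, and 1881 to 2337 without single WT libraries. Shared genes that were higher numbered 63 with pseudocount 8, 361 and 25 at minimum means of 1 and 100, and 504 with a limit of 0.5; those that were lower numbered 116, 17 and 192 at the last 3 settings and 54 to 137 without single WT libraries. Genes higher and absent in 8AF numbered 1023, 170 and 1112 at those 3 settings, and lower ones 157, 28 and 574, with 43 for pseudocount 8, 216 for quantile normalization and 42 to 78 without single WT libraries.

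With the seminal vesicle covariate, log2 differences changed sign for Elac2 (0.18), Jak1 (-0.19), B2m (-0.25), Sbp (0.33), Spink1 (0.23), 9530053A07Rik (0.56), Krt18 (0.038), Upk1a (0.12), Myh11 (-0.33), Acta1 (-0.44), Car3 (-2.84), Vwf (-0.28), P4hb (0.034), Rtcb (0.049), Svs4 (-0.68), Svs1 (-0.14), Svs6 (-0.055) and Tmem254a (0.58). That covariate is high only in 7AF and 9AF, so its fit mostly compares 8AF with WT. Svs1, Svs4 and Svs6 are themselves part of the covariate. Leaving out 1 library changed the sign of Jak1, Spink1, 9530053A07Rik, Krt15, Acta1, Car3, Vwf and mt-Rnr2. The ranges were -0.031 to 0.16, -0.52 to 0.14, -5.32 to 1.21, -0.25 to 0.29, -0.026 to 0.50, -0.63 to 4.03, -0.28 to 0.53 and -0.12 to 0.10 in this order. Krt15 was -0.17 with array weights and -0.083 with edgeR without 8AF. For mt-Rnr2 these were 0.16 and 0.11, and 0.074 with scaling outside the seminal vesicle genes. Atp5b was 0.0001 with that scaling and 0.019 with quantile normalization, and Krt18 0.0007. The cause was not tested. Of the other values for named genes, 1075 kept their direction and their side of the threshold and 170 passed it. Members without overlap numbered 33 to 44 for interferon-stimulated genes without single libraries, 10 to 12 for the GTPases, 9 to 12 for MHC class I, 5 to 7 for MHC class II, 8 to 10 for macrophage genes and 13 to 21 (lower) for ER chaperones, and fewer libraries by construction leave more genes without overlap. No paired analysis was possible because the columns carry no replicate numbers. The mean difference in seminal vesicle share ran from 3.62 to 8.21 percentage points. With 3 libraries per group and 1 library that stands apart in each, small differences were not detectable.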

Other observations

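The 4 genes named next were chosen for their pattern after their values were seen, and no list of nerve genes was counted. Nos1, the neuronal nitric oxide synthase, had normalized counts of 1.60, 272 and 161 in WT and 65.3, 0 and 75.6 in A537T. Tubb3, a neuronal tubulin, had 1.60, 167 and 128 in WT and 97.4, 0 and 97.5 in A537T. Ret, a receptor of enteric and autonomic neurons, had 15.2, 179 and 149 in WT and 133, 7.71 and 223 in A537T. Uchl1, a neuronal deubiquitinase, had 20.9, 137 and 64.3 in WT and 90.4, 20.2 and 95.3 in A537T. Library 1AF was the lowest of the WT libraries and 8AF the lowest of the A537T libraries for all 4 genes, as for Adipoq, the adipocyte hormone adiponectin, with 0, 75 and 38 in WT and 210, 0 and 298 in A537T.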
